A study of Mus musculus with 8 samples.

Results

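The insulin-like growth factor system was described through 10 genes of the 32285 in the deposited gene table: the ligands Igf1 and Igf2, the long non-coding RNA H19, the receptors Igf1r and Igf2r, and the binding proteins Igfbp3, Igfbp4, Igfbp5, Igfbp6 and Igfbp7. The genes were chosen by symbol, and all 10 symbols had a row in every library. Their unique molecular identifiers (UMIs), each a tag for 1 captured RNA molecule, were counted per library and per cell class in 8 libraries of mouse colon cells.

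Insulin-like growth factors are secreted peptides that promote growth and survival of cells. They signal through the tyrosine kinase Igf1r, whereas Igf2r binds Igf2 and delivers it to lysosomes for degradation. Igfbp3 to Igfbp6 bind the ligands with high affinity and set how much of them reaches the receptor, and Igfbp7 is a related secreted protein with low affinity for them. Igf2 and H19 are neighbouring imprinted genes, with Igf2 expressed from the paternal and H19 from the maternal allele, and both are known for high expression in the embryo and low expression after birth. In the intestine, stromal cells are a known source of Igf1, and the epithelium carries the receptors.

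There were 2 libraries for each of 4 groups: the stroma of assembloids, the epithelium of assembloids, organoids, and epithelium taken from tissue. Cells came from young adult male C57BL/6 mice without a transgene or deletion, so that the groups do not differ in genotype. They differ in culture and also in how the cells were dissociated. Assembloids were digested with Liberase TL and DNase I and then TrypLE. Tissue crypts were released with EDTA and DTT and then given TrypLE, and organoids were given TrypLE alone. Culture and dissociation therefore cannot be told apart between the kinds of epithelium. Assembloids were made by combining organoids with cultured primary stromal cells, and were grown without the Wnt surrogate, CHIR-99021, R-spondin 1 and noggin that were supplied to the organoids, so that the presence of stroma and the change of medium cannot be told apart. Stromal cells were cultured on plates before assembly and were taken from the assembloids as EpCAM-negative cells, and tissue epithelium came from freshly isolated crypts. The methods give 2 biological replicates per group, and 2 mice as the source of the stroma. Whether the epithelial replicates came from separate animals is not given in the sources used here, so that p-values measure the spread between these samples, which may be technical.

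After removal of cells with fewer than 500 genes or more than 10% mitochondrial UMIs, 4310 to 29410 cells were left per library, with a median of 3444 to 35219 UMIs per cell. The filter kept 94.8% and 96.1% of the barcodes in stroma but 38.7% and 25.4% in tissue epithelium. Replicates of a group differed by far more than counting error, with a chi-square per gene of 24.2 to 401. Up to 76 cell barcodes were shared between 2 libraries, at most 1.07% of the smaller library. Stroma library 1 stood apart in holding 939 squamous basal cells, which carry keratins of stratified epithelium, against 38 in stroma library 2. The assembloid epithelium libraries held 559 and 512 fibroblast-like and 130 and 164 macrophage-like cells. Levels are given in CPM, the UMIs of a gene per 1000000 UMIs of a cell class, first for replicate 1 and then for replicate 2. They count RNA molecules at the 3′ end and are compared between libraries and classes, not between genes.

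The genes lie on 7 chromosomes of the GRCm38 build. Igf1 is at chr10:87858265-87937042 on the plus strand, Igf1r at chr7:67952827-68233668 on the plus strand, Igf2r at chr17:12682406-12769664 on the minus strand, Igfbp3 at chr11:7206086-7213923 on the minus strand, and Igfbp4 at chr11:99041244-99054392 on the plus strand. Igfbp5 is at chr1:72857932-72874884 on the minus strand, Igfbp6 at chr15:102144362-102149511 on the plus strand, and Igfbp7 at chr5:77349240-77408041 on the minus strand. H19 (chr7:142575529-142578143) and Igf2 (chr7:142650766-142666816) are both on the minus strand and lie 72622 bases apart. Igf2r is overlapped on the opposite strand by Airn, a long non-coding RNA, so that Airn is given beside Igf2r below. Opposite-strand genes also overlap Igf1 (Igf1os), Igf2 (Igf2os), H19 (Gm27483 and Gm27786) and Igfbp7 (Polr2b and Gm34648). Whether reads were assigned by strand is not given in the sources used here.

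Promoters are shown for Igf1r and Igf2r, the members measured well in both epithelium and stroma, and for Igfbp4 and Igfbp7, which moved together between fibroblasts and epithelium in the results below. The sequences are the 250 bases before the RefSeq start on GRCm38.p6, written 5′ to 3′ on the strand of the gene: Igf1r at chr7:67952007-67952256 (plus), Igf2r at chr17:12769707-12769956 (minus), Igfbp4 at chr11:99040994-99041243 (plus) and Igfbp7 at chr5:77408046-77408295 (minus). Capitals mark the TATA box letters TATAAA and the GC box letters GGGCGG, each searched on both strands.
Igf1r: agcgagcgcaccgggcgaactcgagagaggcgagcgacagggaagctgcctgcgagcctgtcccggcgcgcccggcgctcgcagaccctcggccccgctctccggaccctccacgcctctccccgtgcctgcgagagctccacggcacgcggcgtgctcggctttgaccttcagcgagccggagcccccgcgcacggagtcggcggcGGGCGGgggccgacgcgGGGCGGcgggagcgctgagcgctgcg
Igf2r: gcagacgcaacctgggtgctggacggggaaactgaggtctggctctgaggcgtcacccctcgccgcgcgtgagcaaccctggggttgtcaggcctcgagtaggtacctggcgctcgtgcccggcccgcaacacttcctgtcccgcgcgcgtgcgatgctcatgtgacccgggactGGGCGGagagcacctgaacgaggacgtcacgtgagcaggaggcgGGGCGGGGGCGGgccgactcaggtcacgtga
Igfbp4: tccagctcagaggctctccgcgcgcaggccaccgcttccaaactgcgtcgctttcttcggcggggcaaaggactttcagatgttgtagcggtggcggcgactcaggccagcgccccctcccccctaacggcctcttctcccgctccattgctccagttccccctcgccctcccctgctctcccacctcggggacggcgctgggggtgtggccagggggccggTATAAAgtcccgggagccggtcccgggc
Igfbp7: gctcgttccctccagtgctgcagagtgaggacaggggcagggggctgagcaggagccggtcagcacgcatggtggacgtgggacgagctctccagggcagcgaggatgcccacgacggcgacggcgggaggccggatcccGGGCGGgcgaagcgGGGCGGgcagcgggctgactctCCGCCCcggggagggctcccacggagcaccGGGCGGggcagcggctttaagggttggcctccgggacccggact

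Igfbp4 holds the TATA letters once, 28 bases before its start. Both receptors and Igfbp7 hold no TATA letters in this window, with 2 GC boxes in Igf1r, 3 in Igf2r and 4 in Igfbp7. Of 32851 promoter windows of the same length, 12.4% held the TATA letters and 32.7% a GC box. The share of G and C was 77.6% in Igf1r, 69.2% in Igf2r, 69.2% in Igfbp4 and 74.0% in Igfbp7, against a median of 52.4% over all windows. Among the members not shown, Igfbp6 held the TATA letters 148 bases before its start, whereas Igf1, Igfbp3 and Igfbp5 held neither motif. Of 4 starts of Igf2, none held the TATA letters and 2 held a GC box, and H19 had no entry. A match of letters is a description and not a binding site.

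In assembloid stroma, cells were grouped by marker genes into telocyte-like fibroblasts (505 and 626 cells), trophocyte-like fibroblasts (1625 and 3120), other fibroblasts (5086 and 4763), myofibroblast-like cells (80 and 70), glia-like cells (48 and 51), neuron-like cells (57 and 89) and endothelial-like cells (20 and 65). Telocytes are known as subepithelial fibroblasts that supply BMP and Wnt ligands, and trophocytes as deeper CD34+ fibroblasts that supply BMP antagonists and R-spondins. These 2 fibroblast classes are ranges of a score rather than separate types: 1802 and 1653 of 7216 and 8509 gated fibroblasts held 3 or 4 telocyte markers and 3756 and 3248 held 3 or 4 trophocyte markers. Each other class was compared with the mean of the 3 fibroblast classes of the same libraries. Values given without a stroma replicate are log2 ratios of CPM within the remaining library, neither scaled nor fitted.

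Igf1 was high in all fibroblasts of the stroma and lower in glia-like, neuron-like and endothelial-like cells. It stood at 676 and 858 CPM in telocyte-like fibroblasts, at 451 and 438 in trophocyte-like fibroblasts and at 487 and 542 in other fibroblasts. Telocyte-like cells had the higher level in both libraries, but the difference of 0.67 ± 0.44 (log2, SE) was not called (adjusted p = 0.381 with edgeR). Among cells thinned to 2000 UMIs, at least 1 Igf1 UMI was found in 64.0% and 72.8% of telocyte-like and in 51.1% and 49.0% of trophocyte-like cells, against 7.02% and 4.49% of neuron-like cells.

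In myofibroblast-like cells, contractile cells related to fibroblasts, Igf1 stood at 396 and 410 CPM (log2 difference from fibroblasts −0.59 ± 0.38, adjusted p = 0.658). In glia-like cells it stood at 59.8 and 104, in neuron-like cells at 32.5 and 36.8, and in endothelial-like cells at 185 and 69.0. All values of these last 3 classes lay under those of every fibroblast class. Igf1 was lower than in fibroblasts by 2.83 ± 0.49 (log2, adjusted p = 7.43e-04) in glia-like, by 4.19 ± 0.51 (adjusted p = 2.01e-05) in neuron-like and by 2.39 ± 0.46 (adjusted p = 0.00155) in endothelial-like cells, where it was −1.54 without stroma replicate 2 and −3.15 without stroma replicate 1, and was not called with a looser gate, which takes more cells into the rare classes (−1.44, adjusted p = 0.0969). The fibroblast marker list of 10 genes summed to 5611 to 13775 CPM in the fibroblast classes, 2462 and 2540 in glia-like, 1581 and 1134 in neuron-like and 1376 and 1282 in endothelial-like cells, and in these 3 classes no fibroblast marker was at 0 except Lum in glia-like cells of library 1. The part of fibroblast RNA in the values of those classes was not tested.

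Igf2 was scarce, with 136 and 73 UMIs in all passing stroma cells. In other fibroblasts it stood at 1.04 and 0.551 CPM, in trophocyte-like fibroblasts at 1.05 and 0.550, and in telocyte-like fibroblasts at 0.322 and 0. It did not pass the filter on low counts in any comparison between stromal classes, and so it was not tested there.

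H19, the non-coding neighbour of Igf2, had few UMIs in telocyte-like fibroblasts. It stood at 3.33 and 0.895 CPM in telocyte-like fibroblasts, at 11.9 and 6.98 in trophocyte-like fibroblasts and at 6.37 and 4.72 in other fibroblasts. Each library gave the same order. No telocyte-like library reached the level of the filter on low counts (10 UMIs at the median size of the summed libraries), so that H19 was tested because it was higher in other classes, and the difference between telocyte-like and trophocyte-like fibroblasts of −2.32 ± 0.63 (log2, adjusted p = 0.0341 with edgeR) is given as a description. It was not called by DESeq2 (adjusted p = 0.0591). With more cells taken into the rare classes of the shared fit (the looser gate, under which the telocyte-like and trophocyte-like cells stay the same), it was not called either (−2.34, adjusted p = 0.0561). With the library as a block it was called (−2.34, adjusted p = 0.00329 with edgeR), under the same limit of the filter.

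In glia-like cells H19 had 0 UMIs in both libraries, where 0 of 48 and 0 of 51 cells allow a share of cells with a UMI of up to 6.25% and 5.88%, which does not limit the share of cells that express the gene. Neuron-like cells held 2 and 0 UMIs. In endothelial-like cells H19 was called higher than in fibroblasts (2.67 ± 0.56, adjusted p = 0.00306), from 1 UMI in library 1 and 59 in library 2, of which 50 were in 1 cell. Without stroma replicate 2 the log2 ratio of CPM was −0.99, so that the call rested on library 2, and the part of that cell was not tested. Among fibroblasts, squamous basal and epithelial-gated cells, the classes counted for this, no cell thinned to 2000 UMIs held both H19 and Igf2, among 65 and 40 other fibroblasts with H19 and 11 and 7 with Igf2. With so few cells of either kind, cells with both were not detectable at this depth.

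The receptors differed little among fibroblasts. Igf1r stood at 94.2 and 90.3 CPM in telocyte-like, 72.4 and 68.2 in trophocyte-like and 91.7 and 80.6 in other fibroblasts, and its difference between the first 2 was not called (0.27 ± 0.30, adjusted p = 0.626). Igf2r stood at 78.1 and 76.3, 79.4 and 67.4, and 91.5 and 75.0 in the same classes, whose ranges overlapped (telocyte-like minus trophocyte-like −0.05 ± 0.17, adjusted p = 0.903). Neuron-like cells had the highest Igf1r of the stromal classes, at 290 and 150 CPM, 1.22 ± 0.25 (log2, adjusted p = 0.00125) above fibroblasts. Only 21 of 57 and 7 of 89 neuron-like cells had at most 5% mitochondrial UMIs, against 3919 of 5086 and 3524 of 4763 other fibroblasts, and the part of this difference in the neuron-like values was not tested.

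Endothelial-like cells were low in both receptors. Igf1r stood at 61.7 and 22.7 CPM there, 1.40 ± 0.38 (log2) under fibroblasts (adjusted p = 0.0124), and Igf2r at 29.0 and 13.9, which was 2.24 ± 0.23 lower (adjusted p = 9.58e-06). Without stroma replicate 2, the log2 ratio of CPM was −0.48 in Igf1r and −1.52 in Igf2r. Airn was also lower in these cells, with 1 and 3 UMIs (−2.47 ± 0.38, adjusted p = 2.51e-04). In neuron-like cells Airn was higher than in fibroblasts, at 69.8 and 59.4 CPM, whereas Igf2r at 102 and 77.8 did not differ from fibroblasts by the test (0.02 ± 0.15, adjusted p = 0.998).

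Among the binding proteins, Igfbp5 separated telocyte-like from trophocyte-like fibroblasts. It stood at 2091 and 638 CPM in telocyte-like fibroblasts, 138 and 34.6 in trophocyte-like fibroblasts and 500 and 212 in other fibroblasts. Library 1 was higher than library 2 in each class, and within both libraries telocyte-like cells were the highest of the 3. The difference of 3.89 ± 1.16 (log2) was called (adjusted p = 0.0458, and 0.00312 with the library as a block), and it was not called with at most 5% mitochondrial UMIs (3.74, adjusted p = 0.0504) or with the looser gate on other classes of the shared fit (3.87, adjusted p = 0.0552). In thinned cells, at least 1 Igfbp5 UMI was found in 74.1% and 42.7% of telocyte-like against 10.4% and 4.59% of trophocyte-like cells.

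Igfbp4 and Igfbp6 stood in the opposite order. Igfbp4 was at 1891 and 1749 CPM in telocyte-like and 2674 and 3595 in trophocyte-like fibroblasts (−0.91 ± 0.32, adjusted p = 0.0844, and 0.0388 with the library as a block). Igfbp6 was at 22.01 and 9.68 against 59.6 and 32.6 (−1.66 ± 0.53, adjusted p = 0.0616, and 2.11e-04 with the block). Neither was called by the main edgeR fit, which has no block, although in each library the trophocyte-like value was the higher one.

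Igfbp7 stood at 2793 and 1902 CPM in telocyte-like and 3236 and 3616 in trophocyte-like fibroblasts (−0.67 ± 0.43, adjusted p = 0.369). Igfbp3 stood at 78.6 and 88.8 against 98.5 and 19.7, and these ranges overlapped (0.41 ± 0.83, adjusted p = 0.811). Of the 8 members at the level of the filter in both classes, 1 was thus called higher and none lower in telocyte-like than in trophocyte-like fibroblasts, in a comparison that called 11.9% of 12250 genes, and the block added Igfbp4 and Igfbp6.

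Glia-like and neuron-like cells held less Igfbp4 and Igfbp7 than fibroblasts. Igfbp4 stood at 120 and 173 CPM in glia-like cells (−4.09 ± 0.35, adjusted p = 1.85e-06) and at 154 and 176 in neuron-like cells (−4.03 ± 0.34, adjusted p = 7.56e-07), far under all fibroblast values. Igfbp7 was less reduced in glia-like cells, at 1417 and 1193 (−1.20 ± 0.38, adjusted p = 0.0372), than in neuron-like cells, at 402 and 228 (−3.37 ± 0.44, adjusted p = 3.94e-05), although the difference between these 2 classes was not tested. The Igfbp7 call in glia-like cells was lost with a looser gate (−0.93, adjusted p = 0.223) and with library totals in place of TMM scaling (−1.12, adjusted p = 0.0517).

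Endothelial-like cells carried Igfbp3. It stood at 1201 and 322 CPM in these cells, above the fibroblast classes at 19.7 to 117, and the difference was 3.18 ± 0.65 (log2, adjusted p = 0.00219), or 2.49 without stroma replicate 1. The UMIs came from 11 of 20 and 25 of 65 cells, with 29.9% and 20.5% of them in the top cell of each library. The defining endothelial markers were present at 9 of 10 in library 1, where Ccl21a was at 0.

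Igfbp4, Igfbp6 and Igfbp7 were lower in endothelial-like cells than in fibroblasts. Igfbp4 stood at 1129 and 1043 CPM (−1.22 ± 0.28, adjusted p = 0.00505) and Igfbp7 at 1328 and 465 (−1.79 ± 0.40, adjusted p = 0.00418), with −1.18 without stroma replicate 2 and −2.56 without stroma replicate 1. For Igfbp6 there were 0 and 7 UMIs (−3.01 ± 1.04, adjusted p = 0.0425). Neither library of these cells reached the level of the filter on low counts for Igfbp6, so that its difference is given as a description. With a looser gate, Igfbp4 (−0.56, adjusted p = 0.441), Igfbp6 (−1.95, adjusted p = 0.168) and Igfbp7 (−1.22, adjusted p = 0.104) were no longer called in these cells.

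Igfbp5 in glia-like cells rested on single cells, since 62 of 67 and 51 of 57 UMIs were in 1 cell of each library. Its difference from fibroblasts was not called in glia-like, neuron-like, myofibroblast-like or endothelial-like cells, with −3.12 ± 1.26 (adjusted p = 0.0782, and 0.0185 with the block) in endothelial-like cells, at 116 and 9.54 CPM. Igfbp6 was lower in neuron-like cells, at 6.02 and 5.02 (−2.75 ± 0.87, adjusted p = 0.0204, and 0.0627 with a looser gate). Igfbp6 lay under the level of the filter in 1 library of these cells, so that this difference is given as a description. In glia-like cells it stood at 2.72 and 6.93 (−2.77 ± 1.26, adjusted p = 0.138, and 0.0171 with the block).

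H19 and Igfbp6 were under the level of the filter in at least 1 library of glia-like, neuron-like and endothelial-like cells, which leaves 7 members to count. Of these, 3 were called in glia-like cells, all lower, where 11.2% of genes were called lower. Neuron-like cells gave 1 higher and 3 lower, with 44.8% of genes called, and endothelial-like cells 1 higher and 5 lower, with 30.2% of genes called. In myofibroblast-like cells no member was called by edgeR, where 0.653% of genes were. There, 2 of 9 members had an unadjusted p under 0.05 and DESeq2 called 1, Igfbp4, which stood at 1289 and 1233 CPM (−1.04 ± 0.28, adjusted p = 0.133 with edgeR and 0.0169 with DESeq2). Igfbp6 in these cells, at 96.8 and 39.4, was called only with the block (0.93, adjusted p = 0.0462). The median difference of the 7 members was −1.22, −1.22 and −1.79 in glia-like, neuron-like and endothelial-like cells, against −0.14, −0.05 and −0.12 over all genes tested.

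**Figure D1:**
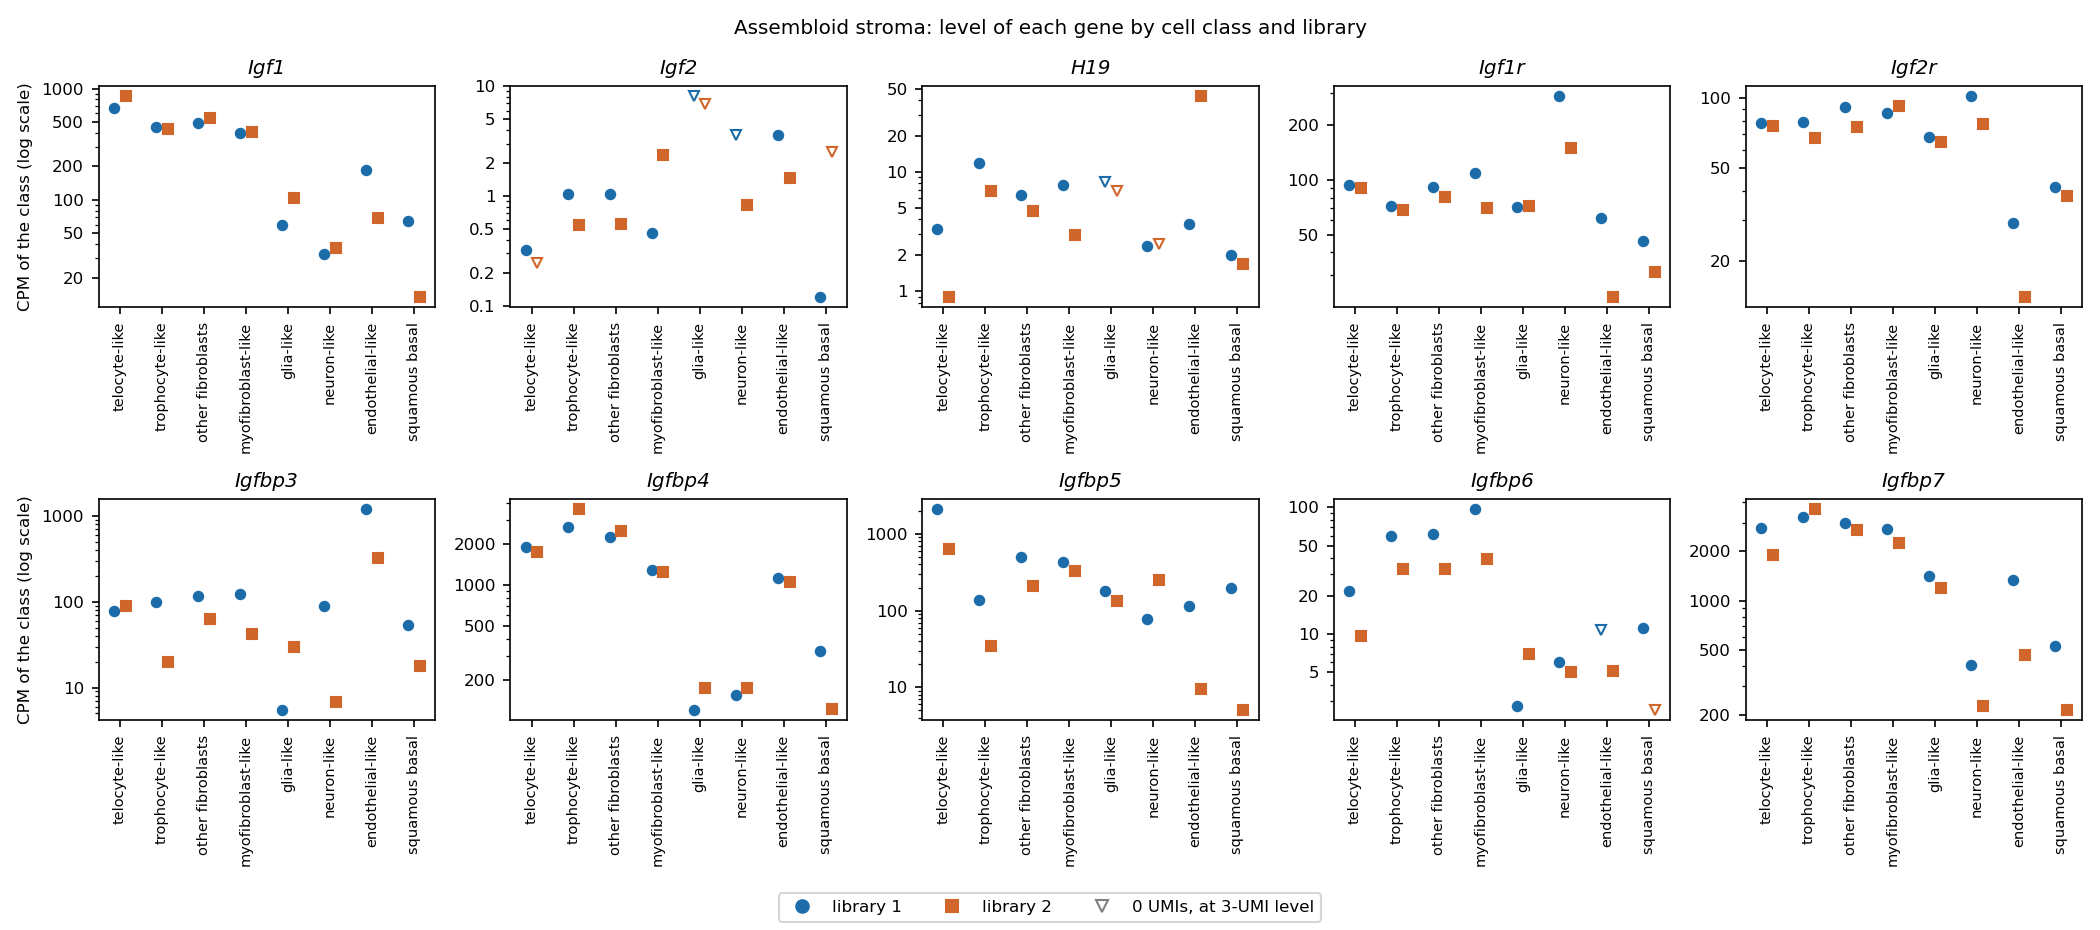
CPM of the class (log axis) of the 10 members in 8 cell classes of assembloid stroma, with 1 point per library. Open triangles mark classes with 0 UMIs, drawn at the level of 3 UMIs. Igf1 and Igfbp4 are highest in the fibroblast and myofibroblast-like classes, Igfbp5 in telocyte-like fibroblasts at 2091 and 638, and Igfbp3 in endothelial-like cells at 1201 and 322.

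Squamous basal cells of the stroma carried both receptors. They are described without a test. Igf1r stood at 52.6% and 40.0% and Igf2r at 47.3% and 51.9% of the level in fibroblasts of the same library. Igf1 stood at 13.2% and 2.49%, and a sum of 6 fibroblast genes (Dcn, Bgn, Col5a1, Col5a2, Fbn1 and Loxl1) at 15.3% and 4.04%. Igfbp3 stood at 48.7% and 33.7% and Igfbp7 at 17.4% and 7.36%. H19 stood at 27.7% and 33.3%, the second from 2 UMIs and so under the floor of 3. The shares of both receptors, Igfbp3 and Igfbp7 thus exceeded that of the fibroblast genes in both libraries, whereas Igf1 did not. Igfbp4 at 14.2% and 4.41%, Igfbp5 at 35.5% and 2.55% and Igfbp6 at 19.3% and 0% changed sides between the libraries.

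The fibroblast-like cells in the assembloid epithelium libraries allowed fibroblasts and epithelium to be compared within the same libraries. All 10 members were called higher in fibroblast-like than in epithelial-gated cells, in a comparison that called 46.7% of 17764 genes and 22.7% as higher. Igf2 passed the filter on low counts through the fibroblast-like cells alone, and H19 and Igfbp3 through them and 1 epithelial sum, which leaves 7 members at the level of the filter in both groups. Igf1 stood at 89.1 and 143 CPM in fibroblast-like cells and at 1.65 and 0.484 in epithelial-gated cells (6.57 ± 0.71, adjusted p = 0.00111). H19 stood at 24.02 and 22.9 against 0.335 and 0.0855 (6.56 ± 0.66, adjusted p = 8.74e-04). Igf2 had 1 and 6 UMIs in fibroblast-like cells and 11 and 3 in the far more numerous epithelial-gated cells, and its call (3.49 ± 0.97, adjusted p = 0.0292) was lost with the library as a block (3.53, adjusted p = 0.0656).

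For the binding proteins, the fibroblast-like level exceeded the epithelial level in both libraries by a large margin. Igfbp4 stood at 2086 and 2369 against 46.7 and 7.04 CPM (6.18 ± 1.01, adjusted p = 0.00442), Igfbp5 at 1038 and 480 against 18.4 and 1.23 (6.07 ± 1.36, adjusted p = 0.0136), and Igfbp7 at 1574 and 2413 against 27.6 and 5.03 (6.74 ± 0.98, adjusted p = 0.00283). Igfbp6 (55.0 and 73.8 against 1.04 and 0.209) and Igfbp3 (9.66 and 11.6 against 0.522 and 0.0855) were also called. In assembloid replicate 2 alone, the log2 differences were 8.40 for Igfbp4, 8.61 for Igfbp5, 8.47 for Igfbp6, 8.07 for H19, 8.21 for Igf1 and 7.09 for Igfbp3. The epithelial level of Igfbp7 was 1.75% of the fibroblast-like level in replicate 1 and 0.209% in replicate 2. The distance between the classes was therefore larger in replicate 2 than in replicate 1 for these genes.

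The receptors differed less. Igf1r stood at 230 and 289 CPM in fibroblast-like and 16.2 and 24.4 in epithelial-gated cells (3.55 ± 0.27, adjusted p = 4.69e-04). Igf2r stood at 83.4 and 69.5 against 28.3 and 39.2 (1.05 ± 0.21, adjusted p = 0.00976). The median difference was 6.18 for the 7 members at the level of the filter in both groups and −0.19 over all genes tested.

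The low epithelial levels were set beside RNA of extracellular matrix genes that fibroblasts make in quantity. These genes are not particular to fibroblasts, since in the stroma libraries their sum stood at 115% and 71.1% of the fibroblast level in glia-like and at 96.6% and 84.8% in myofibroblast-like cells. Sums of the 6 fibroblast genes named above reached 1.73% and 0.233% of the fibroblast-like level in epithelial-gated cells, and the single genes reached 1.43% to 3.88% in library 1 and 0.182% to 0.868% in library 2. Igf1 reached 1.85% and 0.338%, H19 1.40% and 0.373%, Igfbp4 2.24% and 0.297%, Igfbp5 1.77% and 0.255%, Igfbp6 1.89% and 0.283%, and Igfbp7 1.75% and 0.209%. The upper end of both ranges was Loxl1 alone, and the other 5 genes reached at most 1.83% in library 1 and 0.343% in library 2. Igf1, Igfbp4 and Igfbp6 in library 1 and H19 in library 2 lay above those 5 genes and under Loxl1, and H19 in library 1 lay just under the range. Igfbp3 lay above all 6 genes in library 1 at 5.41% and under Loxl1 alone in library 2 at 0.736%. The value in library 2 came from 9 UMIs in 3 cells, with 7 of the UMIs in 1 cell, so that the place of Igfbp3 there rests on few cells.

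The receptors stood at higher shares than the fibroblast genes. Igf1r in epithelial-gated cells stood at 7.07% and 8.47% of the fibroblast-like level and Igf2r at 34.0% and 56.3%. Both shares were lower in the library with more RNA of the fibroblast genes. The part of fibroblast RNA in the epithelial receptor levels was not tested. Macrophage-like cells, which held the fibroblast genes at 0.410% and 0.284%, carried Igf1 at 40.9% and 41.2% of the fibroblast-like level, at 36.5 and 59.0 CPM. Macrophages are a known source of Igf1, and the class held 38 and 128 of its UMIs. Their Igf2r stood at 48.3% and 62.3% and their Igf1r at 19.2% and 16.0% of the fibroblast-like level, while Igfbp4 stood at 2.81% and 2.10%.

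**Figure D2:**
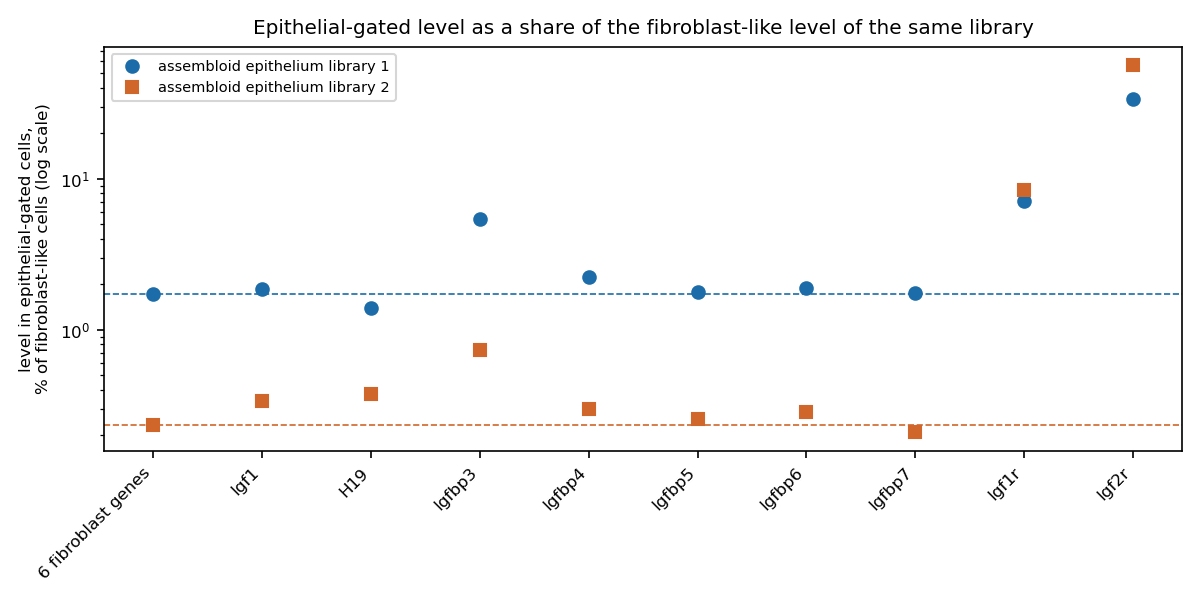
Level in epithelial-gated cells as percent of the level in fibroblast-like cells of the same assembloid epithelium library (log axis), with 1 point per library and a dashed line per library at the share of the 6 fibroblast genes. Igf1, H19, Igfbp4, Igfbp5, Igfbp6 and Igfbp7 lie between 1.40% and 2.24% in library 1 and between 0.209% and 0.373% in library 2, where the lines stand at 1.73% and 0.233%. Igfbp3 lies above them, in library 2 from 9 UMIs with 7 in 1 cell, and Igf1r and Igf2r lie farthest above.

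Fibroblasts of the stroma libraries and fibroblast-like cells of the assembloid epithelium libraries are given side by side without a test, since they were counted with different versions of the software. Igf1 stood at 495 and 540 CPM in the stroma libraries and 89.1 and 143 in the assembloid epithelium libraries, and Igfbp3 at 110 and 52.4 against 9.66 and 11.6. In the other direction, Igf1r stood at 88.0 and 77.7 against 230 and 289, and H19 at 7.24 and 5.05 against 24.02 and 22.9. Igf2r differed little, at 88.0 and 72.8 against 83.4 and 69.5, and so did Igfbp4. Airn stood at 10.8 to 15.8 in the stromal fibroblast classes and at 132 and 130 in fibroblast-like cells. The isolation of the cells and the software version cannot be told apart here.

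Across the 3 kinds of epithelium, the receptors were measured throughout, and the other members were scarce in organoids and tissue. Of the 10 members, 8 passed the filter on low counts, which asks for 10 UMIs at the median library size in 2 libraries, and Igf2 and H19 did not. Igfbp5 and Igfbp6 passed through the assembloid libraries alone, and Igfbp3 through tissue and 1 assembloid library. Igf1 passed through the assembloid and tissue libraries but not the organoid libraries. These members thus had to differ from the group where they were low. Scaling by TMM set the tissue libraries apart from the assembloid libraries, with log2 factors of 0.218 and 0.196 against −0.282 and −0.0868, so that the fitted differences are smaller in size than the ratios of CPM for genes higher in tissue. After scaling, the median over all genes was 0.03 between assembloids and tissue, 0.06 between organoids and tissue and −0.01 between organoids and assembloids.

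Igf1r was lowest in assembloid epithelium. The level was 56.3 and 45.9 CPM in tissue, 16.2 and 24.4 in assembloids and 49.4 and 111 in organoids, and the assembloid values lay under all others. The difference from tissue was −0.95 ± 0.29 (log2, adjusted p = 0.0274) and that of organoids from assembloids 1.78 ± 0.30 (adjusted p = 0.00191). Organoids exceeded tissue by 0.82 ± 0.29 (adjusted p = 0.0482) with overlapping values, and this call was lost with the replicate number as a block (adjusted p = 0.0508), with library totals in place of TMM (0.65, adjusted p = 0.163) and without organoid replicate 2 (0.38, adjusted p = 0.229). The difference between assembloids and tissue was no longer called when all passing cells were used in place of epithelial-gated cells (−0.34, adjusted p = 0.364).

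Igf2r was higher in tissue than in either culture. Tissue had 86.2 and 71.1 CPM, assembloids 28.3 and 39.2 and organoids 31.8 and 45.6. Both tissue values exceeded all 4 culture values, which overlapped. The difference from tissue was −0.84 ± 0.20 (adjusted p = 0.00987) for assembloids and −0.81 ± 0.20 (adjusted p = 0.0114) for organoids, while organoids minus assembloids gave 0.03 ± 0.20 (adjusted p = 0.920), which turned to values of −0.03 to −0.12 under 5 of the alternatives. Airn moved in the same direction between these groups, at 348 and 303 in tissue, 34.1 and 67.5 in assembloids and 73.8 and 156 in organoids (assembloid minus tissue −2.32, adjusted p = 0.00122, and organoid minus tissue −1.33, adjusted p = 0.0130).

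Igf1 had few UMIs in any epithelium: 11 and 5 in tissue, 256 and 51 in assembloids and 4 and 0 in organoids. This is 0.234 and 0.136, 1.65 and 0.484, and 0.0213 and 0 CPM. The assembloid values were the highest, 2.95 ± 0.86 (log2) above tissue (adjusted p = 0.0220), and the pooled ratio of assembloids to organoids was 82.5 with a counting interval of 31.9 to 305, or 33.9 with assembloid replicate 2 alone. Igf1 was also called lower in organoids than in tissue (adjusted p = 0.0359 with edgeR), with a pooled ratio of 13.4 (4.31 to 54.9) in favour of tissue, which is at 9.48 with tissue replicate 2 alone. In organoids Igf1 lay under the level of the filter on low counts, so that both differences from organoids are given as a description. In tissue, the 11 and 5 UMIs came from 4 and 2 cells.

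Igfbp4, Igfbp5, Igfbp6 and Igfbp7 were all higher in assembloid epithelium than in tissue epithelium. Igfbp4 stood at 46.7 and 7.04 CPM in assembloids against 0.405 and 0.922 in tissue (5.84 ± 0.96, adjusted p = 0.00173), and Igfbp7 at 27.6 and 5.03 against 0.533 and 0.352 (5.65 ± 0.87, adjusted p = 0.00132). Igfbp5 had 2860 and 129 UMIs in assembloids against 0 and 2 in tissue, a pooled ratio of 481 (133 to 3973), and Igfbp6 had 161 and 22 against 1 and 0, a ratio of 58.9 (10.4 to 2338). Replicate 1 of the assembloids was the higher one for each of these genes. Of its UMIs, 5940 of 7252 for Igfbp4 and 2459 of 2860 for Igfbp5 lay in cells outside the epithelial classes described below. These cells had a median of 2851 UMIs and stood at 63.6 CPM for Igfbp4 and 26.3 for Igfbp5. Igfbp4 stood at 14.8 to 21.3 in the Lgr5-positive, colonocyte-like, cycling and goblet-like cells of that library, and at 65.6 in enteroendocrine-like cells. Igfbp5 stood at 1.78 to 6.59 and at 17.8 there. With assembloid replicate 2 alone, the ratio to tissue was 51.3 for Igfbp5 and 17.5 for Igfbp6, and without assembloid replicate 1 the fitted difference was 3.75 for Igfbp4 and 3.80 for Igfbp7.

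The 10 fibroblast markers summed to 147 and 43.3 CPM in assembloid epithelial-gated cells, with all 10 present, to 27.0 and 37.8 in organoids, with 6 and 5 present, and to 1.94 and 2.30 in tissue, with 4 and 3 present. The part of fibroblast RNA in the binding protein differences was not tested. Among cells without a UMI of a fibroblast marker, the assembloid minus tissue difference was 5.06 for Igfbp4 (adjusted p = 8.64e-04), 4.68 for Igfbp7 (adjusted p = 7.74e-04) and 2.12 for Igf1 (adjusted p = 0.0343), and Igfbp6 was not tested. Such cells can hold fibroblast RNA of other genes.

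Organoid epithelium held Igfbp4 at 2.48 and 3.62 CPM, above both tissue values, with a difference of 2.44 ± 0.89 (adjusted p = 0.0527, and 0.0458 with the block). Without the filter on low counts, with a stricter gate, with all passing cells or with library totals the difference was called (2.22 to 2.62). Igfbp7 stood at 0.725 and 0.639 in organoids (0.87 ± 0.84 over tissue, adjusted p = 0.426), and Igfbp5 had 0 UMIs in both organoid libraries, so that the mean of the assembloid libraries was at least 405-fold higher than the mean of the organoid floors, set at 3 UMIs per library. With assembloid replicate 2 alone this bound was 50.5-fold. Organoids minus assembloids gave −3.40 ± 0.80 for Igfbp4 (adjusted p = 0.00821) and −4.78 ± 0.79 for Igfbp7 (adjusted p = 0.00174), or −1.31 and −2.93 without assembloid replicate 1.

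Igfbp3 did not have this order. Tissue held 15 and 52 of its UMIs, assembloids 81 and 9, and organoids 1 and 2, and the order of assembloids and tissue depended on the library (−1.02 ± 0.94, adjusted p = 0.395). It was called lower in organoids than in tissue (adjusted p = 0.00698 with edgeR), with a pooled ratio of 74.6 (24.5 to 371), and lower than in assembloids (adjusted p = 0.0138), with a ratio of 32.2 (10.7 to 159). In organoids Igfbp3 lay under the level of the filter on low counts, so that both differences from organoids are given as a description. With tissue replicate 1 alone the first ratio was 29.8, and with assembloid replicate 2 alone the second was 7.98. The second call was lost in cells without a fibroblast marker UMI (−3.62, adjusted p = 0.0558).

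H19 had 52 and 9 UMIs in assembloid epithelium, 12 and 1 in organoids and 0 in both tissue libraries. In tissue, 0 of 4604 and 0 of 4282 cells allow a share of cells with an H19 UMI of up to 0.0652% and 0.0701%, which is no limit on cells that express it. The mean of the assembloid libraries was at least 2.90-fold higher than the mean of the tissue floors, set at 3 UMIs per library, and with assembloid replicate 2 alone the bound was 1.18-fold. Igf2 had 11 and 3, 1 and 1, and 5 and 2 UMIs in the 3 groups. Both were too scarce to be tested.

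Of the 8 members tested, 5 were called higher and 2 lower in assembloids than in tissue, where 49.2% of 19142 genes were called. Organoids minus tissue gave 1 higher and 3 lower, with 47.0% of genes called, and organoids minus assembloids 1 higher and 6 lower, with 52.4% called. Counting only the members at the level of the filter in both groups, these were 3 higher and 2 lower of 5, 1 and 1 of 4, and 1 and 2 of 4. These comparisons share libraries. With each library left out in turn, where a lone library is assumed to vary like the other groups, several calls were lost. In assembloids minus tissue, Igf1 was lost without assembloid replicate 1 (1.67, adjusted p = 0.0947), tissue replicate 1 (0.0848) or tissue replicate 2 (0.124). Igf1r was lost without the same libraries (adjusted p = 0.135, 0.155 and 0.0710), and Igf2r without assembloid replicate 1 (0.0798) or tissue replicate 1 (0.113), while Igfbp3 became called without assembloid replicate 1 (−2.98, adjusted p = 0.0360). In organoids minus tissue, Igf1 was lost without organoid replicate 2 (0.135), tissue replicate 1 (0.167) or 2 (0.0601), Igf1r also without tissue replicate 1 (0.133) or 2 (0.255), Igf2r without tissue replicate 1 (0.144) or 2 (0.0555), and Igfbp3 without organoid replicate 1 (0.0821) or 2 (0.0516). In organoids minus assembloids, Igfbp3 was lost without assembloid replicate 1 (0.101) or organoid replicate 1 (0.123) or 2 (0.0720), and Igfbp4 without organoid replicate 1 (0.0821) or 2 (0.0747).

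**Figure D3:**
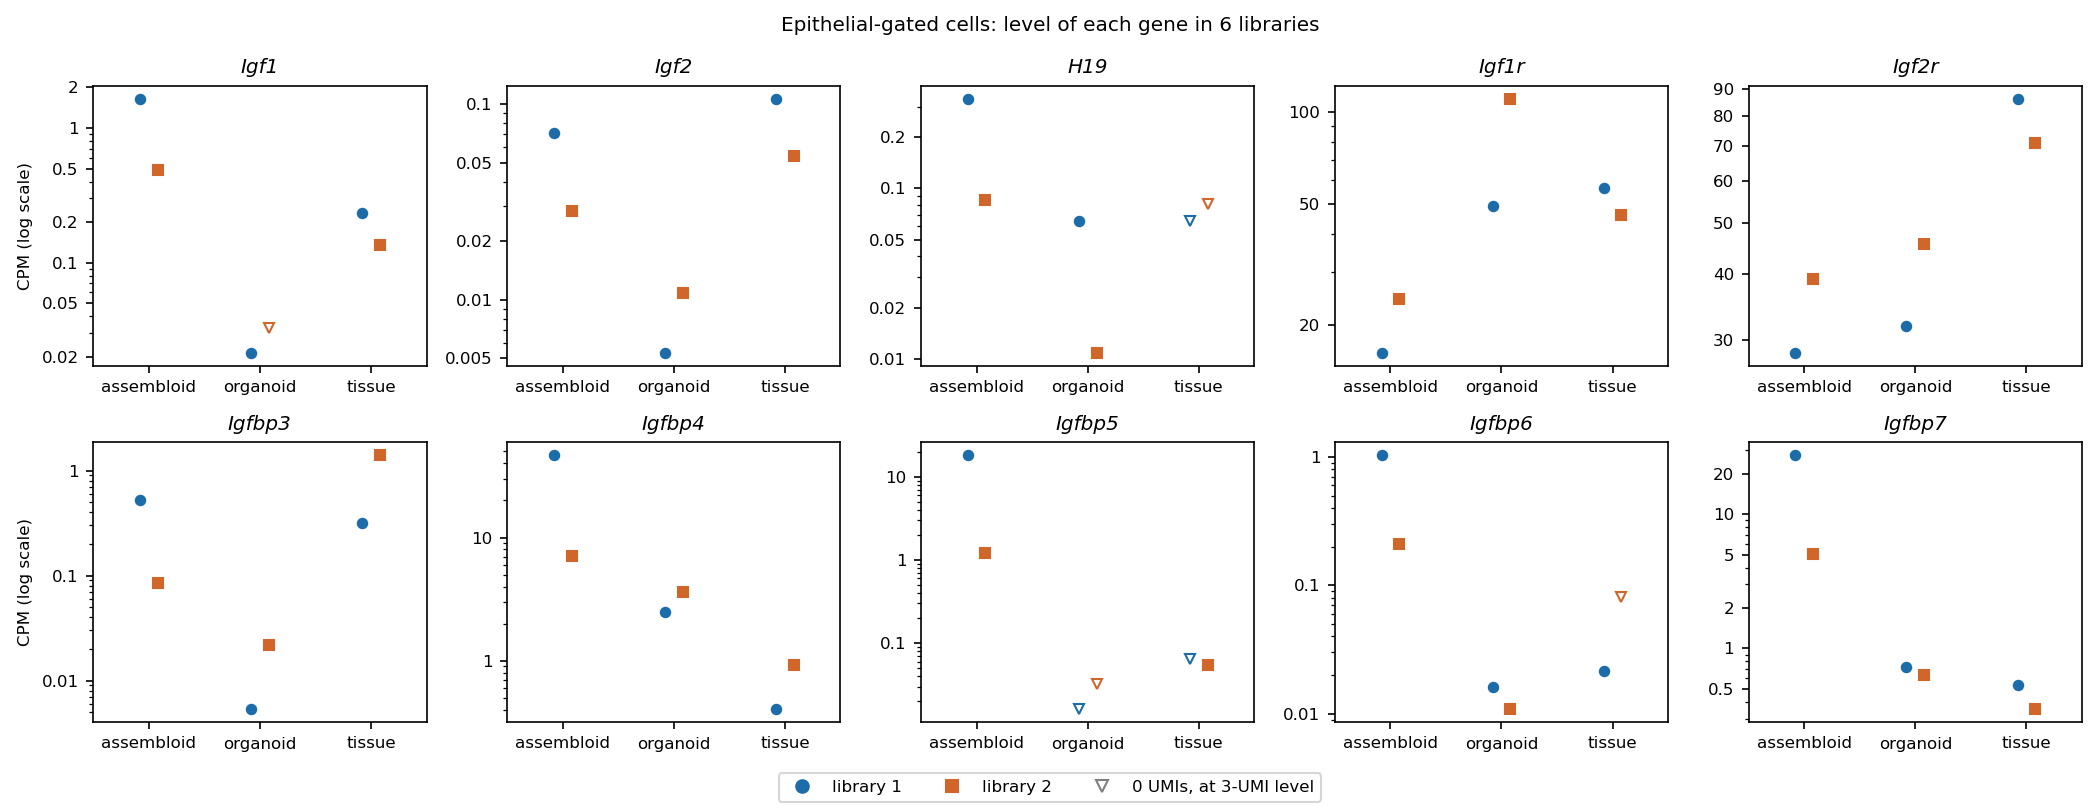
CPM (log axis) of the members in epithelial-gated cells of assembloids, organoids and tissue, with 1 point per library and open triangles for 0 UMIs, drawn at the level of 3 UMIs. Igf2r is highest in both tissue libraries at 86.2 and 71.1, and Igfbp4, Igfbp5, Igfbp6 and Igfbp7 are highest in assembloids.

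Within tissue epithelium, both receptors were lower in colonocyte-like cells, the mature absorptive cells of the upper crypt, than in every other class tested. Igf1r stood at 15.7 and 13.0 CPM in colonocyte-like cells, 61.4 and 46.8 in goblet-like, 76.1 and 73.4 in cycling, 107 and 108 in Lgr5-positive and 199 and 185 in enteroendocrine-like cells. The 2 libraries gave the same order, and neighbouring classes in it did not overlap. Against colonocyte-like cells, the log2 difference was 1.65 ± 0.42 (adjusted p = 0.00414) in goblet-like, 1.84 ± 0.42 (adjusted p = 0.00170) in cycling, 2.36 ± 0.43 (adjusted p = 1.95e-04) in Lgr5-positive and 2.97 ± 0.45 (adjusted p = 1.27e-05) in enteroendocrine-like cells.

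Igf2r stood at 25.0 and 24.5 CPM in colonocyte-like cells, 101 and 98.8 in cycling, 127 and 112 in Lgr5-positive, 129 and 107 in goblet-like and 107 and 132 in enteroendocrine-like cells. Apart from colonocyte-like cells, the values of the last 3 classes overlapped. The differences from colonocyte-like cells were 1.47 ± 0.19 (adjusted p = 4.17e-06), 1.73 ± 0.19 (adjusted p = 6.63e-07), 1.99 ± 0.19 (adjusted p = 5.16e-08) and 1.50 ± 0.20 (adjusted p = 3.21e-06) in the same order. In tissue, 2 members were called higher in Lgr5-positive, cycling and goblet-like cells, the 2 receptors, where 14.1%, 15.8% and 14.1% of 16750 genes were called higher.

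In assembloid epithelium, Igf1r lay under the tissue values in each of the same classes. It stood at 5.82 and 10.3 CPM in colonocyte-like, 10.4 and 13.1 in goblet-like, 14.4 and 26.6 in cycling and 27.8 and 41.1 in Lgr5-positive cells. Lgr5-positive cells exceeded colonocyte-like cells by 1.65 ± 0.45 (adjusted p = 0.0136), whereas cycling (0.98 ± 0.43, adjusted p = 0.0841, and 5.05e-04 with the block) and goblet-like cells (0.43 ± 0.48, adjusted p = 0.668) were not called. Enteroendocrine-like cells had 7 and 76 UMIs, or 9.56 and 82.0 CPM (1.83 ± 0.49, adjusted p = 0.00903), and the log2 ratio to colonocyte-like cells was 0.72 in library 1 and 2.99 in library 2.

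Igf2r in assembloids stood at 20.9 and 24.7 CPM in colonocyte-like cells, a range that overlapped the tissue values. It stood at 27.2 and 35.1 in cycling (0.12 ± 0.19, adjusted p = 0.661), 39.7 and 48.7 in Lgr5-positive (0.50 ± 0.20, adjusted p = 0.0779, and 0.0107 with the block), 38.5 and 50.4 in goblet-like (0.85 ± 0.19, adjusted p = 0.00388) and 39.6 and 71.2 in enteroendocrine-like cells (0.65 ± 0.21, adjusted p = 0.0294, and 0.141 without the filter on low counts). In each of these 4 classes, both assembloid values lay under both tissue values. The number of members called higher was 1 in Lgr5-positive, 0 in cycling, 1 in goblet-like and 2 in enteroendocrine-like cells of assembloids, where 7.62%, 17.9%, 5.87% and 9.73% of genes were called higher, and 1 cycling difference had an unadjusted p under 0.05.

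The class difference itself was compared between tissue and assembloids. For Igf2r it was larger in tissue by 1.22 ± 0.27 (log2, adjusted p = 0.0151) in Lgr5-positive cells, by 1.35 ± 0.26 (adjusted p = 0.00639) in cycling cells and by 1.14 ± 0.27 (adjusted p = 0.0178) in goblet-like cells, where 3.09%, 2.46% and 3.24% of genes were called. It was not called in enteroendocrine-like cells (0.85 ± 0.29, adjusted p = 0.0835, and 0.0109 with the block), where 7.03% of genes were. With library totals in place of TMM, Lgr5-positive (1.31, adjusted p = 0.0688) and goblet-like cells (1.29, adjusted p = 0.0620) fell out, and without the filter on low counts Lgr5-positive cells did (1.16, adjusted p = 0.0542).

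For Igf1r the class difference was also larger in tissue, by 0.72, 0.86, 1.21 and 1.14 in Lgr5-positive, cycling, goblet-like and enteroendocrine-like cells, but none was called (adjusted p of 0.346 to 0.628). With the block, goblet-like (adjusted p = 0.0137) and enteroendocrine-like cells (adjusted p = 0.0290) were. In organoids, only Lgr5-positive and cycling cells were numerous enough. Igf1r stood at 68.5 and 156 against 48.4 and 107 (0.25 ± 0.39, adjusted p = 0.842), and Igf2r at 48.8 and 65.6 against 30.6 and 42.4 (0.37 ± 0.18, adjusted p = 0.312, and 0.0259 with the block), where 3.17% of genes were called. Lgr5-positive cells were the higher class in each organoid library.

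Airn rose with Igf2r in tissue classes. It stood at 38.8 and 61.9 CPM in colonocyte-like, 368 and 414 in cycling, 513 and 509 in Lgr5-positive, 602 and 494 in goblet-like and 842 and 665 in enteroendocrine-like cells. In assembloids it stood at 16.1 and 26.7 in colonocyte-like and 59.8 and 122 in Lgr5-positive cells. Of 3 further nuclear RNAs, which were chosen after their values were seen, Malat1 did not separate these classes, at 20379 and 16104 in tissue colonocyte-like and 18293 and 17067 in tissue Lgr5-positive cells, nor did Neat1, at 516 and 531 against 544 and 607. Kcnq1ot1 did, at 23.7 and 37.9 against 129 and 162. The part of antisense or nuclear RNA in the Igf2r differences was not tested.

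**Figure D4:**
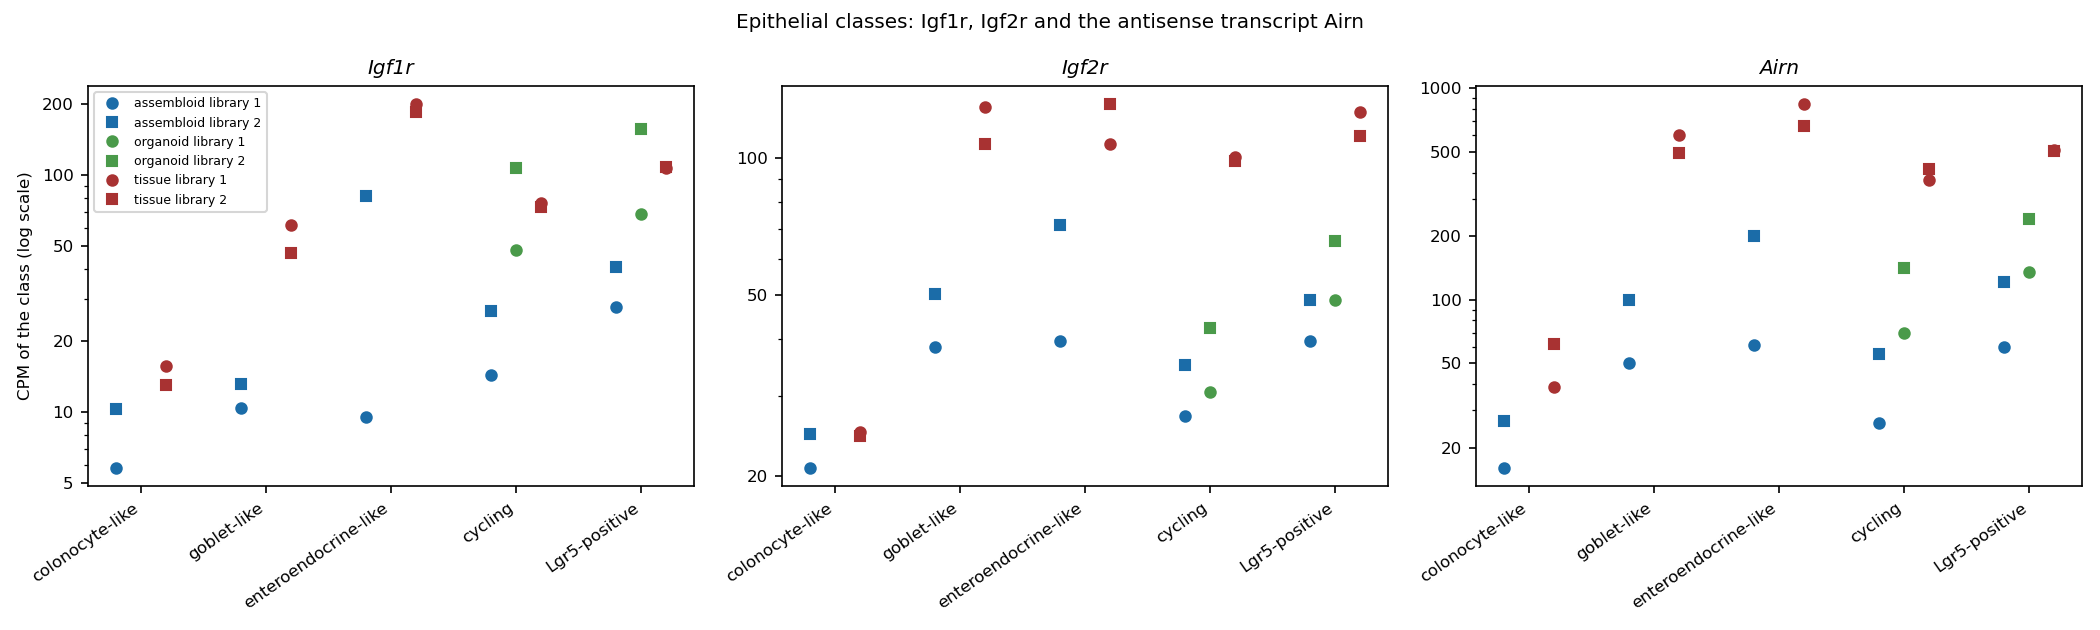
CPM of the class (log axis) of Igf1r, Igf2r and the overlapping antisense RNA Airn in epithelial classes of assembloids, organoids (Lgr5-positive and cycling cells only) and tissue, with 1 point per library. In tissue, colonocyte-like cells lie lowest for all 3 genes, and enteroendocrine-like cells lie highest for Igf1r at 199 and 185.

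The rare Igfbp3 of tissue epithelium lay in enteroendocrine-like cells, the hormone-secreting cells of the epithelium. They held 13 of 15 and 44 of 52 Igfbp3 UMIs (86.7% and 84.6%), while they held 1.23% and 1.87% of all UMIs. Colonocyte-like cells held 0 and 1 UMI, and the difference between these classes was called (adjusted p = 2.37e-04 with edgeR). The gene passed the filter on low counts through this class of tissue alone, so that it had to differ. The UMIs came from 3 of 52 and 7 of 89 enteroendocrine-like cells, with 61.5% and 40.9% in the top cell, so that the value rests on few cells. Apart from Igfbp3, 2 members were called higher in these cells, the receptors, where 19.9% of genes were called higher. In assembloids, 0 of 91 and 0 of 49 enteroendocrine-like cells held an Igfbp3 UMI, which allows a share of cells with such a UMI, though not of cells that express the gene, of up to 3.30% and 6.12%. The difference between tissue and assembloids was not called.

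Other genes of the pathway, a list of 46 regulators and downstream genes, changed in both directions between the kinds of epithelium. Of 42 tested, 13 were higher and 12 lower in assembloids than in tissue, where 49.2% of all genes were called, and the median difference of the list was 0.04 against 0.03 over all genes tested. Grb10, an adaptor that restrains insulin and IGF receptors, was higher, at 22.7 and 31.1 CPM against 0.256 and 0.542 (6.49 ± 0.62, adjusted p = 1.46e-04). Organoids minus tissue gave 11 higher and 13 lower (median −0.02), with 47.0% of all genes called. Ghr, the growth hormone receptor, stood at 1.16 and 3.55 in organoids against 85.5 and 87.1 in tissue (−5.06 ± 0.41, adjusted p = 5.41e-05), and Pappa2, a protease that cleaves binding proteins, at 0.112 and 0.0325 against 11.2 and 12.0. Organoids minus assembloids gave 5 higher and 15 lower (median −0.35), with 52.4% of all genes called.

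In tissue, enteroendocrine-like cells held Pappa2 at 766 and 586 CPM, against 0.390 and 0.480 in colonocyte-like cells (9.81 ± 0.74, adjusted p = 1.82e-08 with edgeR). These colonocyte-like values lay under the level of the filter on low counts, so that Pappa2 had to differ and its difference is given as a description. Of 41 list genes tested there, 10 were higher and 3 lower, where 19.9% and 22.3% of all genes were. In assembloids the same gene had 10.9 and 65.8 in enteroendocrine-like cells and 0 in colonocyte-like cells, and 9 list genes were higher and 2 lower, where 9.73% and 13.0% of all genes were. Goblet-like cells of tissue carried Ghr at 137 and 117, against 31.6 and 32.8 in colonocyte-like cells (1.71 ± 0.27, adjusted p = 3.93e-05).

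In stroma, 2 list genes were higher and 5 lower in telocyte-like than in trophocyte-like fibroblasts, of 37 tested (10 called with the block), where 11.9% of all genes were called. The 2 higher genes act on binding proteins: Pappa, the protease best known for cleaving Igfbp4, stood at 397 and 309 CPM in telocyte-like against 91.6 and 73.5 in trophocyte-like fibroblasts (1.98 ± 0.44, adjusted p = 0.0117), and Stc1, an inhibitor of that protease, at 178 and 110 against 36.9 and 15.5 (2.36 ± 0.58, adjusted p = 0.0186). Both libraries gave the same order for both. Against fibroblasts, glia-like cells gave 5 higher and 3 lower, where 12.8% of all genes were higher and 11.2% lower. Neuron-like cells gave 12 and 8 with 44.8% of all genes called, endothelial-like cells 4 and 12 with 30.2%, and myofibroblast-like cells none (3 with the block) with 0.653%. Grb14, a relative of Grb10, was higher in glia-like (81.6 and 109) and neuron-like cells (79.4 and 73.6) than in fibroblasts (2.78 and 1.72). The fibroblast values lay under the level of the filter, so that these differences are given as a description. Within the assembloid epithelium libraries, 20 of 40 list genes were higher in fibroblast-like cells and 4 lower, where 46.7% of all genes were called, with a median of 0.94 against −0.19 over all genes.

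H19 and Igf2 belong to the imprinted genes, of which a list of 33 was counted in the same way. Of 26 tested, 7 were higher and 12 lower in assembloid than in tissue epithelium, where 49.2% of all genes were called, and 6 were higher and 10 lower in organoid than in tissue epithelium, where 47.0% were. Meg3, a maternally expressed non-coding RNA like H19, stood at 60.9 and 85.6 CPM in tissue against 0 and 0.0108 in organoids. Within tissue it lay in goblet-like cells, at 196 and 254 against 0.682 and 4.32 in colonocyte-like cells (6.23 ± 0.78, adjusted p = 3.61e-06). The paternally expressed Peg3 stood at 336 and 217 in enteroendocrine-like cells against 0.195 and 0.384 (9.09 ± 0.84, adjusted p = 1.13e-07 with edgeR). In colonocyte-like cells, both Peg3 values and the lower Meg3 value lay under the level of the filter on low counts. The differences of both genes are therefore given as a description.

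In stroma, 1 imprinted gene was higher and 5 lower in telocyte-like than in trophocyte-like fibroblasts, of 22 tested (12 called with the block), where 11.9% of all genes were called. Meg3 had the same order as H19 there, at 41.3 and 30.1 against 121 and 190 (−2.25 ± 0.38, adjusted p = 0.00245), and so had Rian, its neighbour, at 8.05 and 3.82 against 19.4 and 23.5. Nnat went the other way, at 35.3 and 39.0 against 9.91 and 6.75 (2.05 ± 0.40, adjusted p = 0.00591). Mest, a paternally expressed gene, was higher in endothelial-like cells than in fibroblasts, at 76.2 and 79.3 against 1.39 and 1.62 (5.63 ± 0.49, adjusted p = 1.53e-06 with edgeR). Its fibroblast values lay under the level of the filter, so that the difference is given as a description.

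To describe which genes had the most similar pattern, the ligands, H19 and the binding proteins were compared with 8591 genes over 16 sums of UMIs, 1 per stromal class and library. These sums share libraries, so that the correlations are given without a test. Gpx3 (Pearson r = 0.986), Spon2 (0.975) and Ifitm1 (0.972) were most like Igf1. Serpina3g (0.966) was most like Igfbp4, Tmed3 (0.973) most like Igfbp7 and Fmr1 (0.941) most like Igfbp6. H19 was most like Gngt2 (0.849), and Igfbp5 like Snrnp35 (0.880) and Il11 (0.864). The highest H19 sum was 43.3 CPM in endothelial-like cells of library 2, where 50 of 59 UMIs were in 1 cell. The next highest was 11.9 CPM, and the part of that cell in the likeness of H19 was not tested. Among the members, Igf1 was closest to Igfbp7 (0.919) and Igfbp4 (0.892), and Igf1r to Igf2r (0.794), whereas Igf1 and Igf1r had little in common (0.137).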

How the data were processed

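Single-cell libraries were made with the 10x Genomics 3′ v3 kit. The deposited files hold raw UMI counts per gene and cell, made by the authors with Cell Ranger on the mm10 build. The matrix headers give version 6.0.1 for stroma and 7.1.0 for epithelium, and whether introns were counted is not given in the sources used here, so stroma and epithelium were not tested against each other. Stroma held 9516 and 9411 barcodes, of which 9020 and 9048 passed the filter of the study's methods (at least 500 genes, at most 10% mitochondrial UMIs), more than the study states. The same filter and the epithelial gate left more assembloid and fewer organoid and tissue epithelial cells than the study states. No doublet caller was run.

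Cells were gated by counts of marker genes, with thresholds set after the distributions were seen: 4 markers of a lineage, 6 of 10 fibroblast markers, and 4 telocyte or 4 trophocyte markers. Counts were summed per class and library, and classes with fewer than 20 cells in a library were not tested. Sums were tested with edgeR 4.0.16 (filterByExpr, TMM, quasi-likelihood test, Benjamini-Hochberg adjustment over all genes tested, threshold 0.05) in R 4.3.3, with DESeq2 1.42.0 as an alternative. Classes of 1 library share that library, so the library was also fitted as a block for them. Deviations of class pairs from the same stroma library correlated at −0.0225 to 0.775, and the replicate numbers of the epithelial groups did not pair. Ratios of low counts carry 95% exact intervals, which like the floor of 3 UMIs cover counting error only. Up to 3 genes per list and comparison with the largest difference among those called were eligible to be named. The members and gene lists were chosen with earlier results of these data known. The scripts were tested on simulated data. Locations follow the GENCODE M21 annotation. Promoters come from RefSeq, which matched 9 of 10 members.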

Additional observations from a re-analysis of the deposited data

Results flagged for a closer look

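The difference in Igf2r between a class and colonocyte-like cells was not the same in tissue and assembloids, by the test of that difference with edgeR. It was larger in tissue by 1.22 (log2, adjusted p = 0.0151) for Lgr5-positive cells, by 1.35 (adjusted p = 0.00639) for cycling cells and by 1.14 (adjusted p = 0.0178) for goblet-like cells. In both tissue libraries and both assembloid libraries, each of these classes had the higher Igf2r level than colonocyte-like cells. Airn, which overlaps Igf2r on the other strand, had class differences that did not pass this test without the library as a block.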

How the results depend on the processing

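Over single members and alternatives, 510 called values stayed called in the same direction, 51 lost the call, 32 moved and 1 reversed. Of values not called, 52 became called and 25 reversed.

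The number of members called moved by more than 1.5 times in these cases, with the epithelial classes counted together and taken singly for DESeq2 only. Organoids minus tissue rose from 4 to 8 with all deposited barcodes. Telocyte-like minus trophocyte-like fibroblasts went from 2 to 6 without a filter on low counts, 4 with the replicate block, 1 with at most 5% mitochondrial UMIs and 0 with a looser gate, which leaves the cells of both classes as they were and changes other classes of the shared fit. Myofibroblast-like cells went from 0 to 1 with DESeq2, 3 without a filter and 1 with the block. Without a filter, glia-like cells went from 3 to 7, neuron-like cells from 5 to 8 and the epithelial classes together from 13 to 23, or 20 with the block. Against colonocyte-like cells, DESeq2 took enteroendocrine-like cells of tissue from 3 to 5 and Lgr5-positive cells of assembloids from 1 to 2. It took the enteroendocrine-like difference between tissue and assembloids, and organoid Lgr5-positive minus cycling cells, each from 0 to 1. Endothelial-like cells went from 8 to 4 with a looser gate. The cause was not tested. With each library left out in turn, the counts ranged from 4 to 8 for assembloids minus tissue, 1 to 6 for organoids minus tissue and 5 to 8 for organoids minus assembloids. The lowest were without tissue replicate 1 for the first, and without organoid replicate 2 or either tissue replicate for the second. With the replicate number as a block, the 3 epithelial comparisons gave 7, 4 and 7 calls, as without it.

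Reversed log2 values, of differences not called except the last, were as follows. Igfbp3 gave 0.58 with all passing cells, 1.47 with all barcodes, and −2.98 (without assembloid replicate 1) to 0.39 (without tissue replicate 2) with 1 library left out, for assembloids minus tissue, 1.57 with DESeq2 in assembloid enteroendocrine-like cells, 0.090 with the block in organoid Lgr5-positive minus cycling cells, −0.28 with a stricter gate in telocyte-like minus trophocyte-like fibroblasts and −0.11 with the block in myofibroblast-like cells. Its cycling difference between tissue and assembloids gave 0.37 with DESeq2, 0.55 with the block and 0.21 with library totals. Igf2r in organoids minus assembloids gave −0.041 with DESeq2, −0.069 with a stricter gate, −0.069 without cells holding a fibroblast marker UMI, and −0.12 (without assembloid replicate 1) to 0.19 (without assembloid replicate 2) with 1 library left out. In neuron-like cells Igf2r gave −0.10 without a filter and −0.36 with a stricter gate, and in telocyte-like minus trophocyte-like fibroblasts 0.00029 with a stricter gate and 0.072 with library totals. Igfbp6 in organoids minus tissue gave −1.39 with all passing cells, −0.69 with all barcodes, and −0.29 (without tissue replicate 2) to 3.78 (without tissue replicate 1) with 1 library left out, and Igfbp5 gave −5.38 (without tissue replicate 1) to 0.00 (without tissue replicate 2, where it has no UMI left). Igf1r in myofibroblast-like cells gave −0.013 with the block. H19 in endothelial-like cells gave log2 ratios of CPM, not fitted values, of −0.99 without stroma replicate 2 and 3.37 without stroma replicate 1.

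A stricter gate left too few myofibroblast-like, glia-like and endothelial-like cells, and at most 5% mitochondrial UMIs too few neuron-like cells, so that these alternatives gave no value. The looser gate, library totals and cells without a fibroblast marker UMI were chosen after seeing the data. Depth limits H19, Igf2 and, in epithelium, Igf1 and the binding proteins, whose values rest on few UMIs in organoids and tissue.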
